A study of Mus musculus with 16 samples.

Results

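Genes that take a muscle stem cell to a fused fibre, 8 in number, were followed through arrays of mouse muscle and a mouse muscle cell line: Pax7, Myf5, Myod1, Myog, Myf6, Mymx, Mymk and Cdh15. They were chosen by gene symbol in the probe annotation, each gene read from its brightest probe set, and 8 of 8 were found among the 18194 genes with a probe set of their own. The series asks what the glycosyltransferase gene Galgt2 (B4galnt2) does to skeletal muscle that lacks dystrophin, the protein lost in the mdx mouse, a model of Duchenne muscular dystrophy. It comprises 16 arrays in 3 sets, and levels were compared only within a set. In the transgenic set, gastrocnemius muscle came from male mice 2 months old: Galgt2 transgenic mdx mice (C57BL/10J x C57BL/6J, dystrophin-deficient), Galgt2 transgenic mice (C57BL/6J), mdx mice (C57BL/10J, dystrophin-deficient) and wild-type mice (C57BL/6J), 2 arrays each. In the AAV set, mdx gastrocnemius of the same sex and age carried either an adeno-associated virus vector with Galgt2 or phosphate-buffered saline (PBS) in the contralateral leg, 2 arrays each. Which AAV and PBS arrays share a mouse is not given in the labels, so their comparison was unpaired and does not use the matching of legs within a mouse. All mice of the AAV set lack dystrophin, the PBS group included. The cell line set has 1 array each of C2C12, a mouse myoblast line, and C2CT, the same line stably transfected with Galgt2, each labelled as myoblasts or as differentiated myotubes. The promoter of the transgene, the promoter and dose of the vector and the number of C2CT clones are not given in the sources used here. Substrain differs between the groups of the transgenic set, except between transgenic and wild type. Nothing says that replicate arrays came from separate mice, so p-values measure the spread between arrays, which may be technical.

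Adult muscle keeps a reserve of satellite cells, quiescent stem cells under the fibre's basal lamina that express the transcription factor Pax7. When a fibre is damaged they divide as myoblasts and switch on the myogenic regulatory factors, basic helix-loop-helix proteins that bind the E-box motif in muscle gene promoters. Myf5 and Myod1 set the muscle fate, Myog (myogenin) starts terminal differentiation, and Myf6 (MRF4) is the family member most expressed in adult fibres. Mymk (myomaker) and Mymx (myomixer, also called myomerger or minion) are membrane proteins that together fuse myoblasts, and Cdh15 is M-cadherin, an adhesion protein of satellite cells and myoblasts. Myog is also known to be induced in fibres that lose their nerve, and its repressor Dach2 to be lost there.

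RefSeq promoter windows (GRCm38.p6, 250 bases before to 50 bases after the start used for the window) were at hand for 4 of the 8 genes. They were those of Myog, Cdh15, Myf5 and Pax7. They are shown because Myog, Cdh15 and Myf5 each passed a test against wild type below, and because an E-box (CANNTG, the same on both strands) is the motif the family binds. Capitals mark each E-box.
Myog, chr1:134289754-134290053, plus strand: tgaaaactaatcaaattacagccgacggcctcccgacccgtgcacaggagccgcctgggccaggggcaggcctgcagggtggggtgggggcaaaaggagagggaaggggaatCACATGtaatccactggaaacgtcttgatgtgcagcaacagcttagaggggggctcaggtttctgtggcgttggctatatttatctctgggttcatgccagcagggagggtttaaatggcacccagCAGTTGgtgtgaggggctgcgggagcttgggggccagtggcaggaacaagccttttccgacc
Cdh15, chr8:122848124-122848423, plus strand: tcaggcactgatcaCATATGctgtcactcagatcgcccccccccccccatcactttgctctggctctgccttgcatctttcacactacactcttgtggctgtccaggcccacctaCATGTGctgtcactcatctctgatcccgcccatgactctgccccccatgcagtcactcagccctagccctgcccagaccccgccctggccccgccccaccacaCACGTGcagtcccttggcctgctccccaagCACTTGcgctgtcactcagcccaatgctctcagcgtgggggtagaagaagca
Myf5, chr10:107486085-107486384, minus strand: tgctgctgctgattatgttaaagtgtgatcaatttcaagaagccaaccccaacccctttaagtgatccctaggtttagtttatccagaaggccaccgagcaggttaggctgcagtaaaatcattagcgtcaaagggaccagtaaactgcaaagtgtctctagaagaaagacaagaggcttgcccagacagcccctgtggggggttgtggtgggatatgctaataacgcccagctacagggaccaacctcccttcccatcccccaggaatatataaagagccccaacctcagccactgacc
The Myog window held 2 E-boxes, at -138 and -12 from the gene start, and the Cdh15 window held 4, at -236, -135, -32 and -2. The Myf5 and Pax7 windows held 0. Both lie inside the gene spans as listed, which begin at 107486927 and 139833530 on the minus strand. These counts of 0 therefore do not describe the listed gene starts. Of 32851 promoter windows of the same length, 72.3% held at least 1 E-box, 39.64% at least as many as Myog and 6.49% at least as many as Cdh15. A match of letters is a description of the window and not a bound site.

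Levels are given as log2 of the deposited intensity. Intensities from different probe sets, and so different genes, cannot be set against each other. Array medians over all probe sets ran from 57.7 to 63.9 intensity units in the transgenic set, from 25.3 to 25.7 in the AAV set and from 57.2 to 60.4 in the cell line set. Over the 1 probe set per gene that was analysed, log2 medians were less even. They were 7.113 and 7.295 in transgenic mdx, 7.130 and 7.031 in transgenic and 7.205 and 7.186 in mdx muscle, against 6.918 and 6.905 in wild type. In the AAV set they were 5.947 and 5.821 in AAV-Galgt2 and 5.614 and 5.794 in PBS muscle. B4galnt2 was at a log2 level of 13.28 and 13.34 in transgenic mdx and 13.17 and 13.32 in transgenic muscle, 3.86 and 7.78 in mdx and 4.61 and 4.94 in wild type, and at 10.54 and 10.56 in AAV-Galgt2 against 5.27 and 4.26 in PBS muscle. It was thus high in all 6 muscle arrays labelled as carrying Galgt2, with replicate 2 of mdx above the other arrays without it. Dmd, the dystrophin gene, was at 9.86 and 9.87 in transgenic mdx, 11.16 and 10.98 in transgenic and 8.52 and 8.13 in mdx muscle, against 11.14 and 11.16 in wild type. Its level in transgenic mdx muscle lay between those of mdx and wild type, 1.54 ± 0.20 above mdx (log2 change ± SE, limma). The mdx allele is a point mutation, so its transcript need not be absent. The 3' to 5' log2 ratio of the Gapdh control probe sets, a sign of RNA integrity, was 1.23 in replicate 2 of transgenic mdx against 0.18 to 0.48 in the other 7 arrays of the set. The 5 genes of adult fibres measured (Acta1, Ckm, Myh4, Tnnt3 and Myh1) had a mean log2 level of 13.27 to 13.54 in that set.

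**Figure D1:**
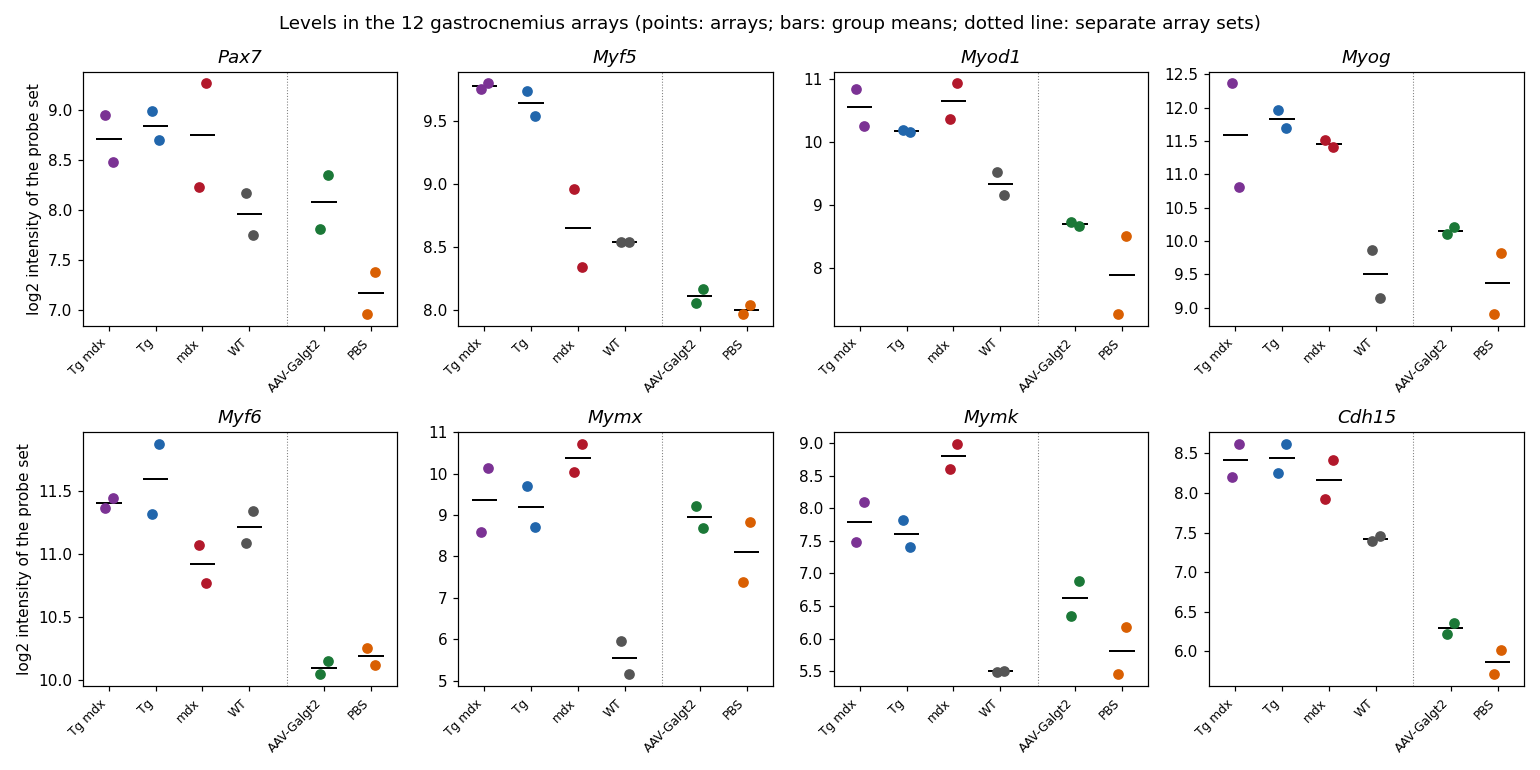
Log2 intensity (vertical axis) of the 8 genes in the 12 gastrocnemius arrays, 1 panel a gene, with each array as a point and each group mean as a bar. For Mymx and Mymk both wild-type arrays lie below all 6 other arrays of the transgenic set, while Myf5 is high in the 4 arrays with the transgene and no group mean of Myf6 differs from wild type past the test.

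In mdx and in transgenic mdx muscle against wild type, the fusion genes had the largest log2 changes among the 8. In transgenic muscle Mymx had the largest, and Myog exceeded Mymk. Mymx had a log2 level of 8.60 and 10.13 in transgenic mdx, 9.70 and 8.70 in transgenic and 10.04 and 10.73 in mdx muscle, against 5.95 and 5.15 in wild type. Mymk had 7.49 and 8.10 in transgenic mdx, 7.81 and 7.40 in transgenic and 8.60 and 8.99 in mdx muscle, against 5.49 and 5.51 in wild type. For both genes every array of the 3 altered groups was above both wild-type arrays, and both wild-type values lay under the median gene of their array (6.90 to 6.92).

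In mdx against wild type Mymx rose by 4.83 ± 0.60 on the log2 scale (28.5-fold, adjusted p = 0.00343), which was the change ranked 6 from the top among 18194 genes. Mymk rose by 3.29 ± 0.32 (9.80-fold, adjusted p = 0.00171) and ranked 30. Here and below, errors are standard errors from limma and p-values are adjusted by Benjamini-Hochberg over all genes, with 0.05 as the threshold.

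Transgenic muscle, whose dystrophin gene is intact, also had both fusion genes up. Mymx rose there by 3.65 ± 0.60 against wild type (12.5-fold, adjusted p = 0.00926) and ranked 23, and Mymk by 2.10 ± 0.32 (4.30-fold, adjusted p = 0.00606). In transgenic mdx muscle the rises over wild type were 3.82 ± 0.60 for Mymx (14.1-fold, adjusted p = 0.00408) and 2.29 ± 0.32 for Mymk (4.90-fold, adjusted p = 0.00195). The fusion pair passed against wild type in mdx and in transgenic mdx muscle with each of the 8 arrays of the set left out. In transgenic muscle Mymk lost its call without wild-type replicate 1 (2.09, adjusted p = 0.0527), and Mymx without wild-type replicate 2 (3.25, adjusted p = 0.0870) or transgenic replicate 1 (3.15, adjusted p = 0.0679). These 3 comparisons share the wild-type arrays, so their values are not independent of each other.

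Myog, the differentiation factor, had a log2 level of 12.36 and 10.82 in transgenic mdx, 11.97 and 11.70 in transgenic and 11.51 and 11.41 in mdx muscle, against 9.87 and 9.15 in wild type. Its altered groups did not overlap wild type either, but the replicates of transgenic mdx stood far apart from each other. Myog rose by 1.95 ± 0.46 in mdx (3.87-fold, adjusted p = 0.0374), 2.32 ± 0.46 in transgenic (5.01-fold, adjusted p = 0.0226) and 2.08 ± 0.46 in transgenic mdx muscle (4.24-fold, adjusted p = 0.0237) against wild type. These calls rested on single arrays and on the spread taken from all muscle arrays: with the transgenic set fitted alone the adjusted p was 0.0674 in mdx, 0.0569 in transgenic and 0.0504 in transgenic mdx muscle. With an offset of 16 before log2 it was 0.0564 in mdx. The rise in mdx lost its call without any 1 of the 4 wild-type and mdx arrays (1.59 to 2.31, adjusted p = 0.0870 to 0.228), and that in transgenic muscle without any 1 of the 4 wild-type and transgenic arrays (1.96 to 2.69, adjusted p = 0.0681 to 0.188). In transgenic mdx muscle it was lost without either wild-type array or without transgenic mdx replicate 1 (1.31 to 2.44, adjusted p = 0.0531 to 0.175). Without replicate 2 of transgenic mdx, the array with the high Gapdh ratio, the rise was 2.86.

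Myf5, a fate factor, had another pattern. It had a log2 level of 9.75 and 9.80 in transgenic mdx and 9.74 and 9.55 in transgenic muscle, against 8.96 and 8.34 in mdx and 8.54 and 8.54 in wild type. All 4 arrays with the transgene were above all 4 without it, whatever their dystrophin status. Myf5 rose with the transgene by 1.10 ± 0.22 in normal muscle (2.14-fold, adjusted p = 0.0243) and by 1.13 ± 0.22 in mdx muscle (2.18-fold, adjusted p = 0.0188). The difference between these effects was 0.03 ± 0.31, with a 95% interval of -0.67 to 0.72. For mdx against wild type the value was 0.11 ± 0.22 (adjusted p = 0.863), with a 95% interval of -0.39 to 0.60, and it turned to -0.20 without mdx replicate 1. Transgenic mdx exceeded wild type by 1.24 ± 0.22 (adjusted p = 0.00876).

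The Myf5 calls also depended on single arrays and on the fit. With the transgenic set fitted alone the adjusted p was 0.0804 in normal muscle and 0.0524 in mdx muscle, and with array medians made equal it was 0.0585 in normal muscle (0.93). With 1 array left out the change ran from 1.00 to 1.20 in normal muscle and from 0.81 to 1.44 in mdx muscle. The call in normal muscle was lost without any 1 of the 4 wild-type and transgenic arrays (adjusted p = 0.0783 to 0.154). The call in mdx muscle was lost without mdx replicate 2 or either transgenic mdx array (0.81 to 1.15, adjusted p = 0.0571 to 0.0950), and that of transgenic mdx against wild type without either wild-type array or transgenic mdx replicate 2 (1.21 to 1.24, adjusted p = 0.0566 to 0.0660). Transgenic and wild-type mice carry the same C57BL/6J label, so the comparison in normal muscle is the one without a substrain difference.

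Myf6 lies next to Myf5 on the same chromosome, with no listed gene between them. It had a log2 level of 11.36 and 11.45 in transgenic mdx, 11.32 and 11.87 in transgenic and 11.07 and 10.77 in mdx muscle, against 11.09 and 11.34 in wild type. The wild-type mean lay between that of mdx, the lowest, and those of the groups with the transgene. No comparison called it. Its change against wild type was -0.29 ± 0.23 in mdx, 0.38 ± 0.23 in transgenic and 0.19 ± 0.23 in transgenic mdx muscle (adjusted p = 0.552, 0.518 and 0.715).

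Pax7, the stem cell factor, and Myod1, the other fate factor, were higher than wild type in each altered group without passing. Pax7 had a log2 level of 8.95 and 8.48 in transgenic mdx, 8.98 and 8.70 in transgenic and 8.23 and 9.26 in mdx muscle, against 8.17 and 7.75 in wild type. Its change was 0.78 ± 0.35 in mdx, 0.88 ± 0.35 in transgenic and 0.75 ± 0.35 in transgenic mdx muscle (adjusted p = 0.246, 0.278 and 0.259). No array of an altered group fell within the wild-type range, although mdx replicate 1 was only just above it. A dimmer Pax7 probe set read 4.87 and 5.07 in transgenic mdx, 5.09 and 5.15 in transgenic, 4.34 and 5.16 in mdx and 4.27 and 4.44 in wild type, so that one of the mdx arrays fell within the wild-type range.

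Myod1 had a log2 level of 10.84 and 10.24 in transgenic mdx, 10.19 and 10.15 in transgenic and 10.36 and 10.92 in mdx muscle, against 9.51 and 9.16 in wild type. Its change was 1.31 ± 0.38 in mdx (2.47-fold, adjusted p = 0.0732), 0.83 ± 0.38 in transgenic (1.78-fold, adjusted p = 0.352) and 1.21 ± 0.38 in transgenic mdx muscle (2.31-fold, adjusted p = 0.0842). The groups did not overlap wild type, yet the test was not passed. A second Myod1 probe set stayed between 2.86 and 3.92 in all 16 arrays, the cell lines included, and was not informative.

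Cdh15, the adhesion gene, had a log2 level of 8.21 and 8.62 in transgenic mdx, 8.26 and 8.62 in transgenic and 7.92 and 8.41 in mdx muscle, against 7.40 and 7.45 in wild type. All 6 altered arrays were above wild type by a modest margin. It rose by 0.99 ± 0.24 in transgenic mdx muscle (1.98-fold, adjusted p = 0.0368). It did not pass in transgenic muscle (1.01 ± 0.24, adjusted p = 0.0556) or mdx (0.74 ± 0.24, adjusted p = 0.110). The call in transgenic mdx was lost without either wild-type array or transgenic mdx replicate 2 (0.78 to 1.01, adjusted p = 0.156 to 0.235), and one in transgenic muscle was gained without either mdx array (1.01, adjusted p = 0.0389). The call in transgenic mdx was also lost with the transgenic set fitted alone (adjusted p = 0.0784), equal array medians (0.69, adjusted p = 0.112), quantile normalization (0.75, adjusted p = 0.0955) and a mean-variance trend (adjusted p = 0.0669). In transgenic muscle Cdh15 passed with an offset of 16 (0.95, adjusted p = 0.0479), with the mean over probe sets (adjusted p = 0.0392) and among genes above the median level (adjusted p = 0.0487).

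**Figure D2:**
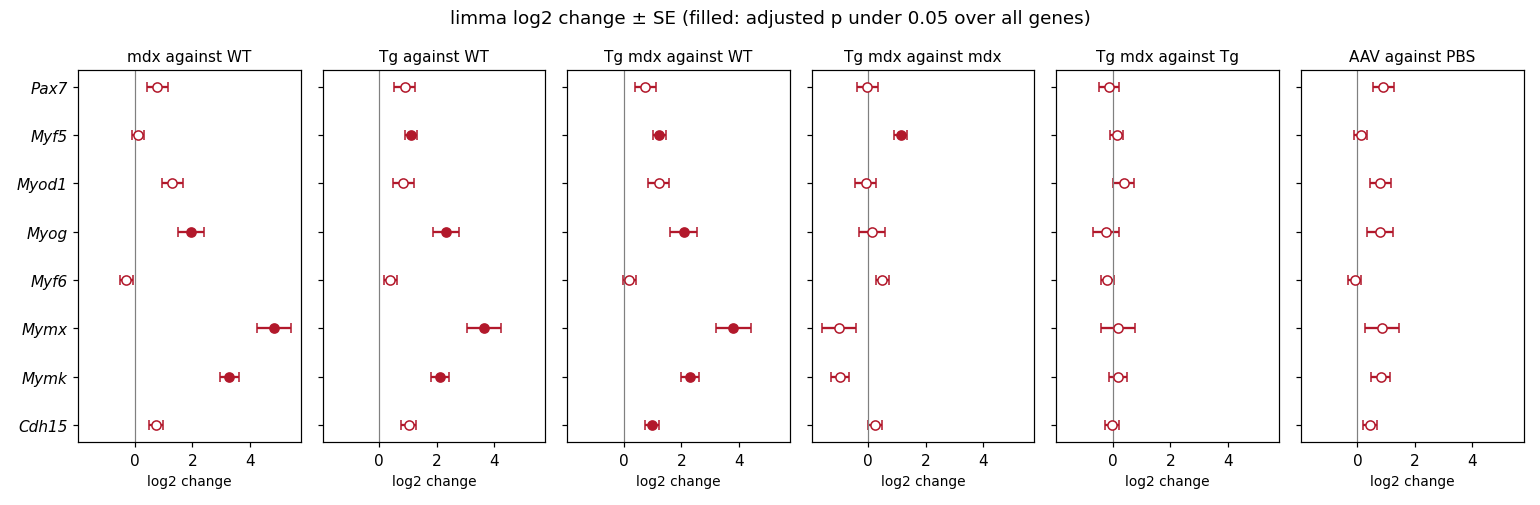
Log2 change ± SE from limma (horizontal axis) of the 8 genes in 6 comparisons, with filled points for an adjusted p under 0.05 over all genes. Filled points stand mostly in the 3 comparisons with wild type, Myf5 alone is filled for transgenic mdx against mdx, and none is filled for transgenic mdx against transgenic or AAV against PBS.

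Counted over the 8 genes, 3 rose in mdx against wild type, where 3.75% of all genes were called higher. Transgenic muscle had 4 higher, with 2.12% of all genes called higher, and transgenic mdx muscle had 5 higher, with 4.91% of all genes called higher. None of the 8 was called lower in these 3 comparisons, beside 1.69%, 1.03% and 2.36% of all genes in this order. Arrays of the altered group lay wholly above wild type for 6 of the 8 genes in mdx (23.7% of all genes), 7 in transgenic (20.5%) and 8 in transgenic mdx muscle (27.8%). The median log2 change of the 8 genes was 1.04, 1.06 and 1.22 in this order, beside medians over all genes of 0.01, -0.05 and 0.01. The genes were chosen with earlier results of these data known.

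Bulk muscle RNA cannot tell more myogenic cells from more RNA per cell. The macrophage genes measured were Cd68, Adgre1, Csf1r, Lgals3, Cd14, Itgam and Mrc1, and their mean log2 level was 9.03 and 9.07 in transgenic mdx, 8.48 and 8.93 in transgenic and 9.87 and 10.27 in mdx muscle, against 7.59 and 7.73 in wild type. The mean was above wild type in all 6 altered arrays, though Itgam (-0.28 ± 0.23) and Mrc1 (-0.14 ± 0.27) had negative log2 changes in transgenic muscle. Of these 7 genes 4 rose in mdx, 1 in transgenic and 3 in transgenic mdx muscle, and their part in the myogenic differences was not tested. The 5 fibroblast genes measured (Pdgfra, Dcn, Col1a1, Col3a1 and Lum) gave 0 calls in any of the 7 comparisons, and their mean log2 level was 11.81 and 11.80 in transgenic mdx, 11.96 and 12.12 in transgenic and 12.001 and 11.47 in mdx muscle, against 11.61 and 11.67 in wild type. Of 7 cell cycle genes 4 rose in mdx muscle, while 1 rose and 1 fell in each of transgenic and transgenic mdx muscle. Of 5 endothelial genes 2 fell in transgenic mdx muscle and 0 passed in the other groups, and neither Schwann cell gene measured (S100b, Sox10) passed. Against wild type, 3.75% of all genes were called higher in mdx, 2.12% in transgenic and 4.91% in transgenic mdx muscle. The shares called lower were 1.69%, 1.03% and 2.36% in this order. In the AAV set the mean of the macrophage genes was 8.57 and 8.20 in AAV-Galgt2 muscle, against 7.85 and 8.90 in PBS muscle, and it was lowest in the PBS array that was also lowest in Myog, Mymx and Mymk.

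Transgenic mdx muscle was then set against mdx muscle, the question being what the transgene adds where dystrophin is missing. Myf5 was the 1 of 8 genes that rose, beside 3.97% of all genes called higher, and 0 fell, beside 2.11% called lower. Mymk was lower in both transgenic mdx arrays than in both mdx arrays (-1.001 ± 0.32, adjusted p = 0.0938) and Mymx was -1.02 ± 0.60 (adjusted p = 0.383), neither passing. Myog differed by 0.13 ± 0.46, with a 95% interval of -0.89 to 1.16, and turned to -0.64 without transgenic mdx replicate 1. Pax7 (-0.03 ± 0.35), Myod1 (-0.10 ± 0.38) and Cdh15 (0.24 ± 0.24) overlapped between the groups, and Myf6 (0.48 ± 0.23, adjusted p = 0.262) did not. Transgenic mdx arrays lay wholly above mdx arrays for 2 of the 8 genes (21.8% of all genes) and wholly below for 1 (22.3%).

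Within transgenic muscle, the dystrophin mutation came with no called change in the 8 genes. In transgenic mdx against transgenic muscle 0 of 8 passed in limma, 0 had an unadjusted p under 0.05, beside 0.055% of all genes called and 3.89% at the unadjusted level. The values ran from -0.24 ± 0.46 for Myog to 0.37 ± 0.38 for Myod1. The 95% interval was -0.51 to 0.89 for Mymk and -1.16 to 1.49 for Mymx. Substrain differs together with the mutation both here and in mdx against wild type, so mutation and substrain cannot be told apart. Without the transgene, mdx against wild type had the 28.5-fold rise of Mymx given above.

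That contrast is the interaction of transgene and mdx. It was -3.11 ± 0.45 for Mymk (adjusted p = 0.0558), -4.67 ± 0.85 for Mymx (adjusted p = 0.101) and -2.19 ± 0.65 for Myog (adjusted p = 0.221), and 0 of 8 passed, beside 0.044% of all genes. At an unadjusted p under 0.05 it had 4 of the 8 genes and 11.9% of all genes. Mymk passed without mdx replicate 1 (-3.30, adjusted p = 0.0385) or without transgenic replicate 2 (-3.31, adjusted p = 0.0477), and also when all array medians were made equal (-2.94, adjusted p = 0.0219), where Mymx passed as well (-4.50, adjusted p = 0.0448). Mymk also passed with quantile normalization (adjusted p = 0.0483) and with a mean-variance trend (adjusted p = 0.0498). Because mdx minus wild type enters the interaction with a negative sign, a large rise in the first makes the second more negative by construction.

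In the AAV set the question was whether Galgt2 delivered to muscle that already lacks dystrophin moves these genes. Myog had a log2 level of 10.10 and 10.21 in AAV-Galgt2 muscle, against 8.91 and 9.83 in PBS muscle. Mymx had 9.22 and 8.69 in AAV-Galgt2 and 7.38 and 8.84 in PBS muscle, and Mymk 6.35 and 6.89 in AAV-Galgt2 and 5.45 and 6.18 in PBS muscle. Replicate 1 of the PBS arrays was the lowest of the 4 for each of these 3 genes, and Mymx overlapped between the groups.

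Pax7 had 7.81 and 8.34 in AAV-Galgt2 muscle, against 6.96 and 7.38 in PBS muscle, and Myod1 8.72 and 8.65 in AAV-Galgt2 muscle, against 7.26 and 8.50 in PBS muscle. Cdh15 had 6.22 and 6.36 in AAV-Galgt2 and 5.71 and 6.01 in PBS muscle. AAV-Galgt2 arrays were above PBS arrays for these 3 genes, each read from its brightest probe set. The dimmer Pax7 probe set read 3.06 and 3.17 in AAV-Galgt2 and 2.67 and 3.45 in PBS muscle, which overlapped. With the mean over its probe sets the log2 change of Pax7 was 0.48. Myf5 had 8.06 and 8.17 in AAV-Galgt2 and 7.97 and 8.04 in PBS muscle, and Myf6 10.04 and 10.15 in AAV-Galgt2 and 10.25 and 10.12 in PBS muscle. The log2 change was 0.11 ± 0.22 for Myf5 and -0.09 ± 0.23 for Myf6.

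None of the 8 genes passed in limma for AAV-Galgt2 against PBS, where 0 of 18194 genes passed and 8.28% had an unadjusted p under 0.05. B4galnt2, the gene the vector carries, did not pass either (5.78 ± 0.91, adjusted p = 0.233). A gene that did not pass here can therefore still differ. At that unadjusted level stood Pax7 (0.91 ± 0.35, adjusted p = 0.532) and Mymk (0.81 ± 0.32, adjusted p = 0.536), 2 of the 8. The values for Myod1 (0.80 ± 0.38), Myog (0.79 ± 0.46), Mymx (0.85 ± 0.60) and Cdh15 (0.43 ± 0.24) were positive too, with adjusted p of 0.616, 0.706, 0.771 and 0.695. AAV arrays lay wholly above PBS arrays for 6 of the 8 genes and for 25.3% of all genes. Without PBS replicate 1 the values were 0.19 for Myod1, 0.33 for Myog, 0.12 for Mymx and 0.45 for Mymk, and without PBS replicate 2 they were 1.42, 1.25, 1.57 and 1.17. Over all genes 3 were called without PBS replicate 1, and 158 without PBS replicate 2 (99 higher and 59 lower). Myf5, which rose with the transgene in both backgrounds, had here a 95% interval of -0.38 to 0.60. The difference from the transgenic set was not tested.

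Genes that the myogenic factors are known to activate were read as a list of 17. Against wild type, 7 of 17 rose in mdx, 7 rose and 1 fell in transgenic, and 8 rose and 2 fell in transgenic mdx muscle. Over all genes, 3.75%, 2.12% and 4.91% were called higher and 1.69%, 1.03% and 2.36% lower in the same order. The list's median log2 change was 0.72 in mdx, 0.96 in transgenic and 1.10 in transgenic mdx muscle. Tnnt2, the cardiac and embryonic troponin T, rose by 3.82 ± 0.43 in mdx, 4.45 ± 0.43 in transgenic and 4.94 ± 0.43 in transgenic mdx muscle, and Myh8, the neonatal myosin, by 4.11 ± 0.40, 3.63 ± 0.40 and 4.66 ± 0.40 in the same order. Myh3, the embryonic myosin, rose by 4.10 ± 0.53 in mdx muscle. These genes are characteristic of developing and regenerating fibres.

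Cdkn1a, which encodes the cell cycle inhibitor p21 that marks myoblasts leaving the cycle, rose by 1.42 ± 0.30 in mdx, 2.80 ± 0.30 in transgenic and 2.88 ± 0.30 in transgenic mdx muscle against wild type. It was also 1 of 2 list genes that rose in transgenic mdx against mdx muscle (1.46 ± 0.30, adjusted p = 0.0202), the other being Chrnd, the acetylcholine receptor delta subunit (2.08 ± 0.31, adjusted p = 0.00573). In the same comparison Actc1, cardiac actin, fell by 2.23 ± 0.26 and Ckm, muscle creatine kinase, by 0.96 ± 0.21. There 3.97% of all genes were called higher and 2.11% lower. Actc1 was also the gene that fell in transgenic muscle against wild type (-1.26 ± 0.26, adjusted p = 0.0269). Not all of the list therefore moved one way. For AAV-Galgt2 against PBS 16 of the 17 were positive, beside 54.3% of all genes, and 0 passed, with a median of 0.47 beside 0.03 over all genes. The list's mean log2 level was 9.16 and 9.21 in AAV-Galgt2 muscle, against 8.39 and 9.02 in PBS muscle. PBS replicate 1 was again the lowest array. The gene of smallest p there was Chrng, the fetal receptor subunit (1.00 ± 0.34, adjusted p = 0.465).

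**Figure D3:**
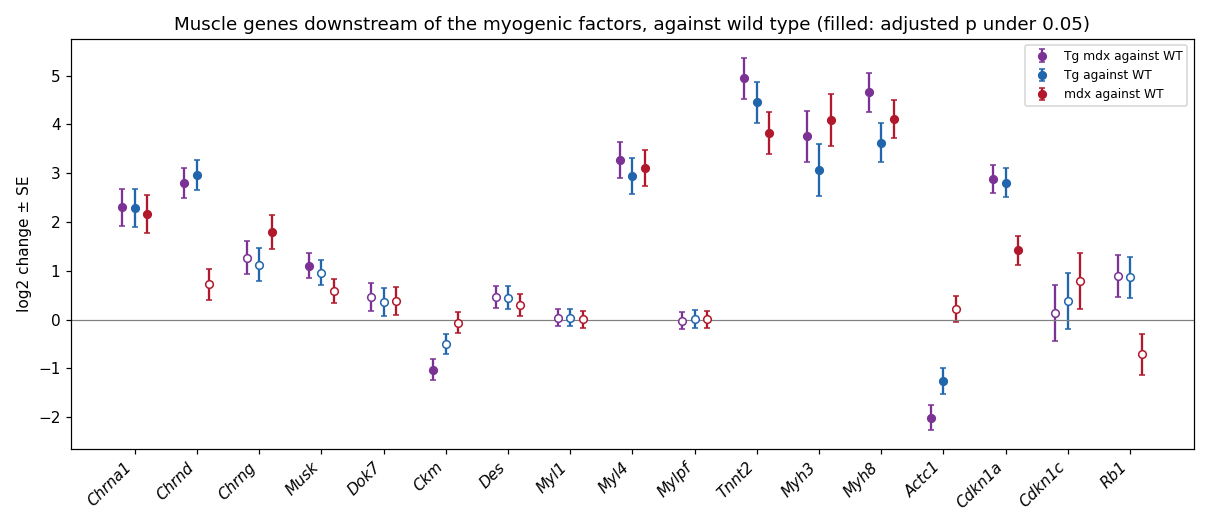
Log2 change ± SE from limma (vertical axis) of 17 muscle genes that the myogenic factors activate, in transgenic mdx, transgenic and mdx muscle against wild type, with filled points for an adjusted p under 0.05 over all genes. The embryonic and neonatal genes Tnnt2, Myh3, Myh8 and Myl4 rise in all 3 comparisons. Actc1 falls in transgenic and in transgenic mdx muscle, and Ckm in transgenic mdx muscle.

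Partners and inhibitors of the factors were read as lists of 9 and 13 measured genes. Against wild type, 3.75%, 2.12% and 4.91% of all genes were called higher in mdx, transgenic and transgenic mdx muscle. The shares called lower were 1.69%, 1.03% and 2.36% in this order. In transgenic mdx against mdx muscle 3.97% of all genes were called higher. Of 9 partner genes measured, Eya1, a transcriptional coactivator upstream of Myf5, Myod1 and Myog, fell by 1.92 ± 0.18 in mdx (adjusted p = 0.00171) and by 0.80 ± 0.18 in transgenic mdx muscle (adjusted p = 0.0252) against wild type, and was -0.67 ± 0.18 in transgenic muscle (adjusted p = 0.0847). It was the 1 gene of this list called in any comparison, and it rose in transgenic mdx against mdx muscle by 1.12 ± 0.18. Of 13 inhibitors, Id2, a helix-loop-helix protein that blocks the E-protein partners of the factors, rose by 1.67 ± 0.31 in mdx and by 1.41 ± 0.31 in transgenic mdx muscle. Bhlhe41, a repressor known to act on Myod1, fell in transgenic mdx muscle by 1.08 ± 0.22 against wild type, and Id4, of the same family as Id2, rose by 1.20 ± 0.29 against mdx. For AAV-Galgt2 against PBS the smallest p was that of Mef2d among partners (0.85 ± 0.25, adjusted p = 0.437) and Bhlhe40 among inhibitors (0.88 ± 0.24, adjusted p = 0.395).

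Of 15 other satellite cell and myoblast genes, 1 rose in mdx (Cxcr4, a chemokine receptor, 2.07 ± 0.31), 2 in transgenic and 3 in transgenic mdx muscle against wild type. Beside this, 3.75%, 2.12% and 4.91% of all genes were called higher in the same order. Fgfr4, a growth factor receptor of myoblasts, rose by 1.60 ± 0.35 in transgenic and 1.81 ± 0.35 in transgenic mdx muscle, and Itga7, the muscle laminin receptor subunit, by 1.05 ± 0.24 in transgenic and 0.99 ± 0.24 in transgenic mdx muscle. In transgenic mdx against mdx muscle Chodl, a lectin of quiescent satellite cells, rose by 1.73 ± 0.25 while Cxcr4 fell by 1.75 ± 0.31. None passed for AAV-Galgt2 against PBS, where Notch3, a receptor that keeps satellite cells quiescent, had the smallest p (1.81 ± 0.39, adjusted p = 0.357). Of 15 further fusion genes, Adam12, a metalloprotease of fusing myoblasts, rose in mdx (2.42 ± 0.50), and Itga9, an integrin subunit that binds it, in transgenic (1.28 ± 0.24) and transgenic mdx muscle (1.26 ± 0.24). These were the only calls in that list in the 7 comparisons, so 13 of the 15 passed in none. Each comparison with wild type thus had 1 of 15 higher, beside the same 3.75%, 2.12% and 4.91% of all genes.

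Of 8 genes of the response to denervation, 0 rose and 1 fell in mdx, 0 rose and 1 fell in transgenic, and 1 rose and 1 fell in transgenic mdx muscle against wild type, with median log2 changes of -0.03, 0.35 and 0.35. Over all genes, 3.75%, 2.12% and 4.91% were called higher and 1.69%, 1.03% and 2.36% lower in the same order. The gene of the list that fell was in each case Dach2, the Myog repressor. It had a log2 level of 4.82 and 4.48 in transgenic mdx, 5.02 and 4.76 in transgenic and 5.26 and 4.87 in mdx muscle, against 8.12 and 7.97 in wild type. Both wild-type arrays were far above the other 6. The log2 change against wild type was -2.98 ± 0.41 in mdx (adjusted p = 0.00460), -3.15 ± 0.41 in transgenic and -3.39 ± 0.41 in transgenic mdx muscle. In the AAV set Dach2 had 5.92 and 6.13 in AAV-Galgt2 muscle, against 7.58 and 6.02 in PBS muscle, which overlapped. Hdac9 rose in transgenic mdx against mdx muscle by 1.69 ± 0.40, and Hdac4 had the smallest p of the list for AAV-Galgt2 against PBS (1.16 ± 0.33, adjusted p = 0.427).

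Runx1, a transcription factor induced by denervation, was the gene most like Myog over the 8 arrays of the transgenic set, with a Pearson r of 0.980 among 9096 genes above the median level. Sema4b, Tpd52, Slc41a2 and S100a6 came next, at 0.977 to 0.960. The genes most like Mymx were Rpsa (0.983), Mymk (0.981), Dap (0.977), Ppox (0.974) and Lgals3 (0.971). These coefficients describe 8 arrays in 4 groups that differ in many genes at once. Runx1 itself had a log2 level of 11.16 and 9.22 in transgenic mdx, 10.46 and 9.76 in transgenic and 9.72 and 9.42 in mdx muscle, against 8.19 and 7.35 in wild type, and rose in transgenic mdx muscle by 2.42 ± 0.56 (adjusted p = 0.0282). Like Myog, it was lower in replicate 2 than in replicate 1 of transgenic mdx.

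In the cell lines, with 1 array per condition and no test, the 8 genes did not part myoblasts from myotubes as labelled. Myog was at a log2 level of 13.15 in the array labelled C2CT myotubes and 12.88 in that labelled C2CT myoblasts, 12.76 in that labelled C2C12 myotubes and 13.25 in that labelled C2C12 myoblasts. Mymx was at 12.42 and 12.32 in the arrays labelled C2CT myotubes and myoblasts, and at 12.01 and 12.11 in those labelled C2C12 myotubes and myoblasts. Both genes were therefore high in all 4 arrays, those labelled myoblasts included. Myod1 (12.17 to 12.33) and Cdh15 (10.29 to 10.38) varied least over the 4 arrays. Myf6 was dim in all of them, at 4.52 to 6.43.

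**Figure D4:**
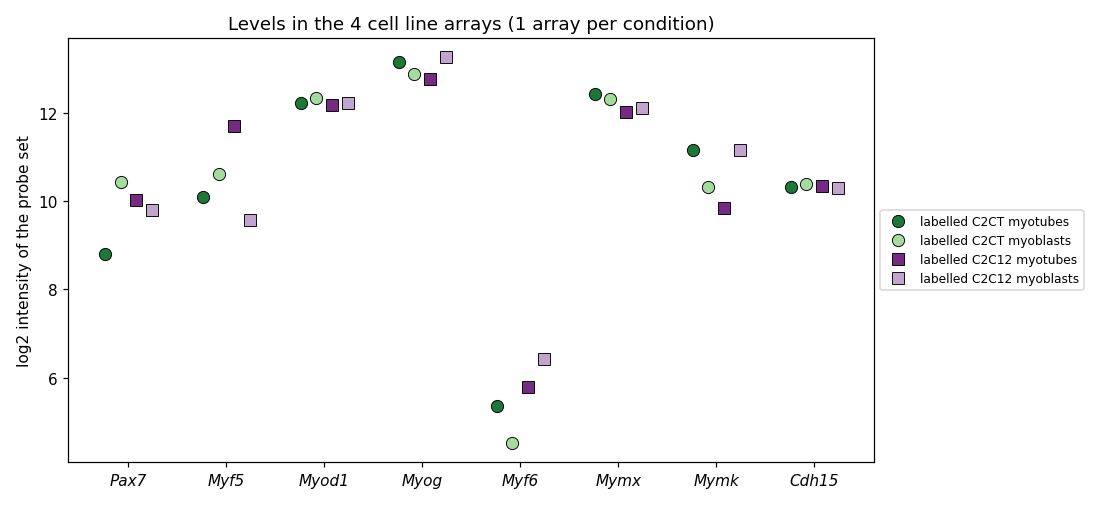
Log2 intensity (vertical axis) of the 8 genes in the 4 cell line arrays, named by their labels, with 1 array per condition. Myod1, Myog, Mymx and Cdh15 lie close together in the 4 arrays, whereas Pax7 is lowest in the array labelled C2CT myotubes, and Myf5 highest and Mymk lowest in the array labelled C2C12 myotubes.

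Pax7, Myf5 and Mymk varied more, as did the dim Myf6 (4.52 to 6.43). Pax7 was at 8.79 in the array labelled C2CT myotubes against 10.44 in that labelled C2CT myoblasts, a difference of -1.65, the 1 difference of at least 2-fold among the 8 genes in this line. Myf5 was at 10.08 and 10.61 in the arrays labelled C2CT myotubes and myoblasts. Mymk was at 11.16 in C2CT myotubes and 10.32 in C2CT myoblasts, a difference of 0.84. In all, 3.35% of genes were at least 2-fold higher and 2.24% at least 2-fold lower in this comparison.

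The parental line ran the other way. Myf5 was at 11.70 in the array labelled C2C12 myotubes against 9.56 in that labelled C2C12 myoblasts, a 4.41-fold higher level, and Mymk at 9.85 in the array labelled myotubes against 11.16 in that labelled myoblasts, a 2.48-fold lower level. Beside this, 4.09% of all genes were at least 2-fold higher and 4.27% at least 2-fold lower in the array labelled C2C12 myotubes. Of the 17 targets of the myogenic factors, 8 were at least 2-fold lower and 0 higher there, while in C2CT 5 were at least 2-fold higher and 0 lower. Myh8 differed by 4.64 in C2CT and -4.12 in C2C12 on the log2 scale, and the cell cycle gene Ccnd1, cyclin D1, by -1.44 in C2CT and 2.46 in C2C12. The array labelled C2C12 myotubes thus had lower muscle genes and higher Ccnd1 than its partner, against its label, and no direction of differentiation was drawn from that pair.

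Between the lines at the stage labelled myoblast, C2CT against C2C12, Myf5 was 2.07-fold higher and Myf6 3.74-fold lower, beside 2.68% of all genes at least 2-fold higher and 3.56% lower. At the stage labelled myotube, C2CT had Mymk 2.48-fold higher, Pax7 2.33-fold lower and Myf5 3.08-fold lower than C2C12, beside 4.51% of all genes higher and 4.75% lower. The sign for Myf5 differed between the stages, and each value compares a pair of single arrays. These values follow the C2C12 labels, and whether the labels of that pair are exchanged was not tested. Set against the other C2C12 array, Myf5 in C2CT would be lower at the stage labelled myoblast (10.61 against 11.70) and higher at the stage labelled myotube (10.08 against 9.56). In the same way Mymk at the stage labelled myotube would not differ (11.16 against 11.16), and Pax7 would be lower (8.79 against 9.80). The dim Myf6 at the stage labelled myoblast would be lower (4.52 against 5.78). By the labels as given, the Pax7 difference at the stage labelled myotube fell under 2-fold with the mean over its probe sets (-0.70).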

How the data were processed

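The authors deposited one intensity per probe set for each of 16 arrays. GCOS and RMA are named in the submitters' processing notes, without versions. No deposited intensity is below 3.90 and the highest is 24269, a linear scale, so log2 was taken. Per the labels' protocols, 25 ng of RNA was amplified and biotin-labelled with the Ovation system. Of 45101 probe sets, 34958 carry a single gene symbol in the supplied annotation and 18194 genes resulted. Each gene was read from its probe set of greatest average log2 level, taken separately for muscle and for cell lines. The 12 muscle arrays were analysed by two-sided limma contrasts (version 3.58.1, R 4.3.3) between 6 groups, with eBayes and Benjamini-Hochberg adjustment over all genes. The 4 cell line arrays were compared without a test. The method was run on simulated arrays with independent noise. That setting holds no effect shared between arrays and no array of poorer RNA, so it cannot gauge either here. Alternatives changed the arrays fitted, the scaling, the offset, the variance trend, the probe set rule and the level filter, or left out single arrays. The 8 genes and all lists were chosen with earlier results of these data known. Genes named are the 8, Dmd and B4galnt2 as label checks, from each list called genes of largest change or the gene of smallest p, and the 5 most like Myog and Mymx. Others, such as Cdkn1a and Ccnd1, were named after their values were seen. The number of arrays limits precision.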

Additional observations from a re-analysis of the deposited data

Results flagged for a closer look

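In 7 of the 8 genes the difference between the arrays labelled myotubes and myoblasts had opposite signs in C2CT and C2C12, each from a pair of single arrays, and the difference between the lines was not tested. On the log2 scale, myotube minus myoblast label, Mymk was 0.84 in C2CT and -1.31 in C2C12, and Myf5 was -0.53 in C2CT and 2.14 in C2C12. Pax7 gave -1.65 in C2CT and 0.21 in C2C12, but with the mean over its probe sets both were negative (-1.20 in C2CT and -0.12 in C2C12). Myf6 gave 0.84 in C2CT and -0.64 in C2C12, and Myog 0.27 in C2CT and -0.50 in C2C12. Mymx (0.10 in C2CT, -0.10 in C2C12) and Cdh15 (-0.057 in C2CT, 0.040 in C2C12) were near 0 in both lines.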

How the results depend on the processing

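The number of the 8 genes called moved with the arrays fitted, single arrays and, for the interaction, the scaling. Fitting each array set alone gave 2 calls for transgenic against wild type (4 in all muscle arrays), 0 for transgenic mdx against mdx (1) and 3 for transgenic mdx against wild type (5). The replicate block within the array set gave 2 for transgenic against wild type, where Myf5 (adjusted p = 0.108) and Mymx (0.0564) were lost, and 0 for transgenic mdx against mdx, where Myf5 was lost (0.0726); Myog in mdx (0.0516) and Cdh15 in transgenic mdx (0.0615) against wild type were lost too. Differences of same-numbered replicates correlated from -0.439 (wild type and mdx) to 0.542 (wild type and transgenic) between groups. Between AAV and PBS the value was -0.047. The numbers thus paired the groups in no single direction. Whether arrays of different groups shared an effect under another numbering was not tested. For the interaction, 2 passed when all array medians were made equal, and 1 each with quantile normalization and a mean-variance trend (0 as reported). With 1 array left out, calls ranged from 1 to 5 for transgenic against wild type, 0 to 1 for transgenic mdx against mdx, 2 to 5 for transgenic mdx against wild type and 0 to 1 for the interaction. Signs turned for Myf5 in mdx against wild type (-0.18 with the same median, -0.0095 with quantile normalization), Myf6 in transgenic mdx against wild type (-0.10, same median), Myf5 in AAV against PBS (-0.071, same median) and Pax7 in transgenic mdx against mdx (0.094, mean over probe sets). With 1 array left out, signs also turned for Myf5 in mdx against wild type (-0.20 to 0.42), in transgenic mdx against mdx for Cdh15 (-0.0036 to 0.49), Myod1 (-0.40 to 0.20), Myog (-0.64 to 0.91) and Pax7 (-0.55 to 0.49), in transgenic mdx against transgenic for Cdh15 (-0.23 to 0.18), Myf6 (-0.47 to 0.087), Mymk (-0.12 to 0.49), Mymx (-0.60 to 0.93), Myog (-1.02 to 0.53) and Pax7 (-0.36 to 0.11), and in the interaction for Myf5 (-0.29 to 0.34) and Myf6 (-0.17 to 0.38). None of these was called. In C2C12, myotube minus myoblast label, the mean over probe sets turned Pax7 to -0.12 and Myod1 to 0.011. Over all genes the same median moved the median change in mdx against wild type to -0.28 and the split to 540 higher and 1080 lower (682 and 308 otherwise), and in transgenic mdx against wild type to 631 higher and 1048 lower (894 and 430). In transgenic against wild type the split became 314 higher and 327 lower (386 and 187). Over the processing alternatives, calls over all genes ranged from 488 to 1620 in mdx, 204 to 641 in transgenic and 623 to 1679 in transgenic mdx muscle against wild type, and from 344 to 1295 in transgenic mdx against mdx. With 1 array left out they ranged from 132 to 1338, 184 to 653, 434 to 1575 and 311 to 1290 in the same order, and from 0 to 158 for AAV against PBS. The cause of these shifts was not tested. An arm left with 1 array was assumed to vary like the others. Groups of 2 arrays limit what could be called.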
